A study of Mus musculus with 3 samples.

Results

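Nuclei carrying the transcripts of pigment cells were examined in aortic valve structures of newborn mice. Members were chosen by measured values: a nucleus was taken when it held at least 1 UMI, a uniquely tagged RNA molecule, of at least 2 of the 5 genes Dct, Pmel, Tyrp1, Tyr and Mlana. Of 14981 nuclei kept from 3 pools, 105 met this rule, 56 in pool 1, 26 in pool 2 and 23 in pool 3. Because these 5 genes chose the members, their levels are given as a description only, and every test below concerns other genes. The members did not prove to be uniform: 63 lay together in 1 cluster of nuclei with the features of pigment cells, and 42 were scattered over clusters of other kinds.

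Melanocytes arise from the neural crest, migrate through the embryo and make melanin inside specialised organelles, the melanosomes. The transcription factor MITF, acting with SOX10 and PAX3, switches on the melanin enzymes, and the receptors KIT and EDNRB carry the signals on which the immature cells depend for survival and migration. Pigmented melanocytes are known in the valves and septa of the mouse heart as well as in the skin, and they share their neural crest origin with the Schwann cells of peripheral nerves.

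All 3 pools belong to 1 group of mice, of the strain labelled B6.Cg-Scx<tm1.1(EGFP)Skom with the stock number RBRC11098. The name stands for a targeted Scx allele with EGFP, the green fluorescent protein. Pups were taken at postnatal day 1, and each pool combined 22 to 24 frozen aortic roots. No treatment and no control group is named in the labels, so comparisons were made between nuclei of the same pool, and the labels do not give the number of copies of the allele. Nuclear RNA was read with the 10x Multiome kit, which also assays open chromatin in each nucleus, a part not analysed here. The labels give a mixed tissue, and the nuclei include valve interstitial-like, endothelial-like, smooth muscle-like and cardiomyocyte-like clusters. Pools are separate samples, but nothing gives the parentage of the pups, so p-values measure the spread between these 3 pools.

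The pools differed in size, with 7557, 3463 and 3961 kept nuclei, and the median depth of the nuclei that were not members was 4293, 4685 and 3271.5 UMIs. Members had medians of 4755.5, 4610.5 and 7730 UMIs in pools 1, 2 and 3. A total of 101 nucleus barcodes occurred in more than 1 pool, and 4 members carried such a barcode. Scrublet, a caller of droplets holding 2 nuclei, cannot be taken to have worked at its automatic threshold, which marked 1 nucleus of 21140. With the threshold set by an assumed share of doublets, it marked 10 members, 5 of 56, 2 of 26 and 3 of 23 by pool. Among all deposited nuclei it marked 895 of 10580, 283 of 5949 and 170 of 4611.

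Members made up 0.741% of the kept nuclei of pool 1 (Wilson 95% interval 0.571 to 0.961%), 0.751% of pool 2 (0.513 to 1.10%) and 0.581% of pool 3 (0.387 to 0.870%). The mean was 0.691% ± 0.0955 (SD, n = 3 pools), and the 3 intervals overlapped. These intervals cover counting error only. The share was sensitive to depth: when nuclei with under 1000 UMIs were left out and the others were reduced at random to 1000 UMIs before the rule was applied, it found 0.460%. It was 0.531% when at least 3 of the 5 genes were asked for.

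The rule genes differed in strength. Dct, which encodes dopachrome tautomerase, was the most widely detected, in 49 of 56, 25 of 26 and 22 of 23 members of pools 1, 2 and 3. Its summed level, in CPM, counts scaled to 1000000 UMIs of the members of a pool, was 1923, 3668 and 306 in the members against 2.53, 4.63 and 2.78 in the other kept nuclei. Tyr, which encodes tyrosinase, the enzyme of the first step of melanin synthesis, was found in 40, 21 and 19 members, at 793, 1396 and 161 CPM. Tyrp1, which encodes a tyrosinase-related melanosome protein, was found in 30, 17 and 17 members. Pmel, which encodes the protein of the fibrils on which melanin is laid down, was found in 46, 25 and 21 members, and Mlana, which encodes a small melanosome protein, in 21, 15 and 5. In each of these genes the CPM was lowest in pool 3, where a few very deep nuclei dominated the sum (shown in the plot of member depth). Among the nuclei that were not members, Pmel had the widest trace, with a UMI in 2.97%, 2.76% and 1.93% of them.

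At the edge of the rule the evidence per nucleus was slight. The 29 members with exactly 2 rule genes held a median of 2 rule-gene UMIs in a median of 4378 UMIs. The 730 nuclei just outside, with exactly 1 rule gene, held a median of 1 in 6106. Pmel was the only rule gene in 394 of these 730, Dct in 190, Tyr in 88, and Tyrp1 and Mlana in 29 each. By contrast, 31 members had 4 rule genes with a median of 30 UMIs of them, and 28 had all 5 with a median of 74.5.

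The promoters of the melanin enzymes share a short motif that MITF is known to bind, the M-box, whose core is TCATGTG. The 250 bases before the start are printed for Tyr (chr7:87493513-87493762, minus strand), Tyrp1 (chr4:80833963-80834212, plus strand), Dct (chr14:118052247-118052496, minus strand) and Trpm1 (chr7:64153585-64153834, plus strand), a channel gene. Among genes whose transcripts mark the same nuclei, they were chosen because their window holds the motif. Mlph and Gpr143, also considered, gave no window with it. The printed sequences come from the RefSeq table of mouse promoters with coordinates of GRCm38.p6, a different build from that named for the counts. Capitals mark TCATGTG, or its reverse complement CACATGA, and the lines run 5′ to 3′ toward the gene.
Tyr promoter: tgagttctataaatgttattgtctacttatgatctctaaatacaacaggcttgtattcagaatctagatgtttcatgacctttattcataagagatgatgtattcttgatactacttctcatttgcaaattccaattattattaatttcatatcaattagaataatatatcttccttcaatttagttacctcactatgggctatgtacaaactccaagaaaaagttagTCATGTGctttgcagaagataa
Tyrp1 promoter: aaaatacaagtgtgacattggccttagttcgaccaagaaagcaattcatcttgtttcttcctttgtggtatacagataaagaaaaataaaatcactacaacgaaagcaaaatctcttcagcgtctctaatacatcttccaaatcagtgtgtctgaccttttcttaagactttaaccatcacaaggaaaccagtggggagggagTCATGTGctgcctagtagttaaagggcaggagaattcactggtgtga
Dct promoter: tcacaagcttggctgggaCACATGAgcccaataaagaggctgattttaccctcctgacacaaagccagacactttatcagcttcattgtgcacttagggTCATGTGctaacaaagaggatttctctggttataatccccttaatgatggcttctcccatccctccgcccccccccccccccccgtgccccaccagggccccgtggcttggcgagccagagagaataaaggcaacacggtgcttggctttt
Trpm1 promoter: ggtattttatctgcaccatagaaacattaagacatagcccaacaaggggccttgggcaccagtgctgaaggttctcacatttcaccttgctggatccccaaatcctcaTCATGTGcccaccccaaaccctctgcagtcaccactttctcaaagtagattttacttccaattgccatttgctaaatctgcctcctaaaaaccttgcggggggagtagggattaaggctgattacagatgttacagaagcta
The first base of the motif lies 22 bases before the start in Tyr, 47 in Tyrp1, 151 in Dct and 142 in Trpm1. In Tyr, Tyrp1 and Dct the motif continues as TCATGTGCT, the longer form. On both strands, TCATGTG was present in 3.25% and TCATGTGCT in 0.335% of the 32851 promoter windows of this length that were searched. Entries are counted among these windows, which do not cover every chromosome. TCATGTG was found in windows of 3 of the 28 melanosome and pigment genes with an entry (Trpm1, Slc24a5 and Hps1), 3 of 16 receptor and signal genes (Mc1r, Braf and Pde4d) and 0 of 10 transcription factor genes, against 331 of 12993 of all tested genes with an entry. Among the genes that were higher in members, 10 of the 155 with an entry held it. A match describes these letters in this window and does not show binding, and entries were matched for 3 of the 5 rule genes.

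Clustering of all kept nuclei without the rule genes placed 63 of the 105 members in 1 cluster of 81 nuclei, with 32 from pool 1, 18 from pool 2 and 13 from pool 3. All 4 melanocyte markers, which are rule genes, were raised in it, so it is called melanocyte-like, and its name is no independent finding. Its leading genes were Dct, Tyr, Pax3, Tyrp1, Gpnmb, Oca2, Pmel, G630064G18Rik, Trpm1 and Gm10863. The number of rule genes went with the place of a nucleus: 5 of 29 members with 2 rule genes lay in this cluster, 9 of 17 with 3, 24 of 31 with 4 and 25 of 28 with 5. Other settings of the clustering put 63 to 65 members in 1 cluster.

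The 42 members elsewhere were of 2 broad kinds. Of these, 24 lay in clusters named for other cell types, 7 endothelial-like, 6 cardiomyocyte-like, 3 smooth muscle-like, 3 valve interstitial-like, 2 fibroblast-like, 2 mesothelial-like and 1 adipocyte-like. Another 18 lay in unnamed clusters, 15 of them in a cluster of 564 nuclei with a median of 12265 UMIs in which no marker list reached its threshold. Members inside the melanocyte-like cluster had a median of 3889 UMIs and 153 rule-gene UMIs per 10000. Members elsewhere had a median of 13058.5 UMIs and 4.38 per 10000. In the melanocyte-like cluster, 32 of the 63 members had no other marker list with 3 or more genes detected, and all 42 members elsewhere had at least 1.

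**Figure D1:**
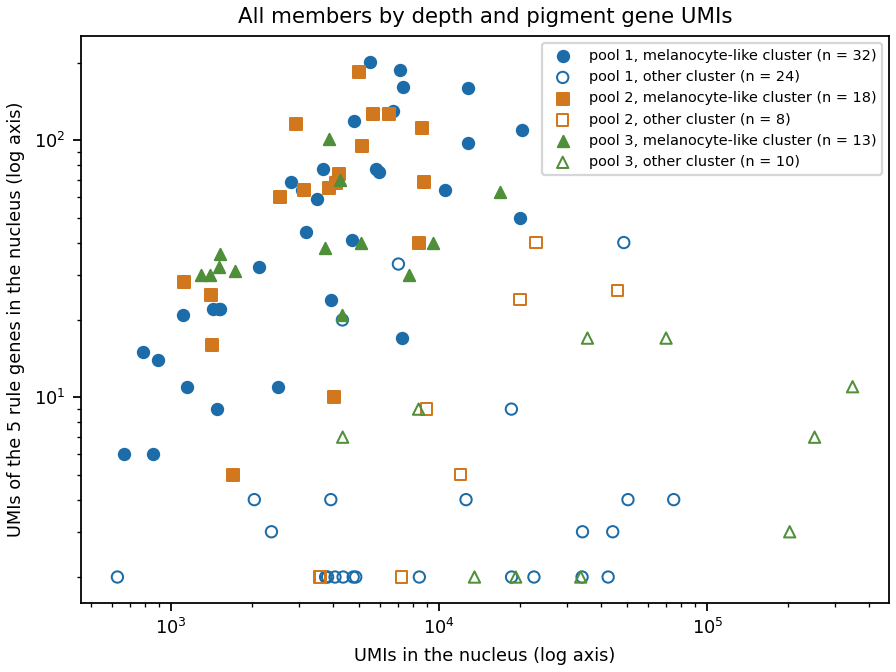
Each point is 1 of the 105 members, placed by its UMIs and by its UMIs of the 5 rule genes (both log axes), with the pool as shape and colour and filled points for the melanocyte-like cluster. Filled points reach at most 20408 UMIs and hold 5 to 202 rule-gene UMIs, whereas open points extend to 348249 UMIs with 2 to 40.

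Depth was spread very unevenly among the members. Above 20000 UMIs lay 19 members, 17 of them outside the melanocyte-like cluster, and these nuclei held 62.9%, 43.9% and 89.7% of the members' UMIs in pools 1, 2 and 3. The 3 deepest, all in pool 3, had 348249, 251275 and 202911 UMIs and together 42.7% of the UMIs of all members. All 19 had 3 or more markers of at least 3 other cell types, with a median of 7 of 13 lists (the melanocyte and glial lists left out). Over all members the share was 35.2%, with a median of 1 list, beside 37.5% and a median of 2 in 525 other nuclei matched as nearly as possible in depth. The 63 members of the melanocyte-like cluster held 16.5% of the members' UMIs, and 5.98% in pool 3. Sums over members therefore describe these deep nuclei to a large extent, so changes are also given with each nucleus reduced to 1000 UMIs, which weights nuclei equally and leaves out 5 members, all in pool 1, and 903 other nuclei with fewer UMIs, and levels are given for the melanocyte-like cluster alone.

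Against all other kept nuclei of the same pools, 209 of 16882 genes were higher in members and 157 were lower (edgeR quasi-likelihood test, Benjamini-Hochberg adjusted p under 0.05). The background share called was therefore 2.17% in either direction, 1.24% higher and 0.93% lower, and the median change over all genes was -0.04 on the log2 scale. Melanocyte transcription factors, pigment genes and receptors stood among the higher genes, and haemoglobins and 4 of 7 tested valve interstitial markers among the lower ones. With nuclei weighted equally, 159 of 11747 genes were higher (1.35%) and 260 lower (2.21%, 3.57% in all), so the balance of directions turned, and the median over all genes was -0.43. Among nuclei with at most 20000 UMIs, 403 of 15986 genes were higher (2.52%) and 525 lower (3.28%, 5.81% in all). Without the pool as a block 75 genes passed, 68 higher and 7 lower. Against nuclei matched to the members in depth, 38 of 10751 genes passed, 36 of them higher. The match was incomplete in pool 3, where the deepest member had 348249 UMIs and the deepest matched nucleus 229096. Of the listed genes called in the sums, those higher against matched nuclei were Pax3, Mlph, Oca2, Trpm1, Slc45a2, Met, Erbb3, Cdh19 and Ptgds, while 6 were not tested in that fit (Sox10, Tfap2a, Gpr143, Mc1r, a and Kcnj13). In DESeq2, 136 genes passed, and of the listed calls those of Mitf, Tbx2, Hps3, Adcy2, Adcy9, a, Cadm2, Kcnj13, Kcnn2, Cacna1c, Slc8a1, Chrm2, Cdh2, Cdh13, Robo1 and Top2a did not, nor did those of the class markers Ttn, Myl7, Pcdh15, Rnf43, Pparg, Ptprb, Upk3b and Muc16. Of the calls of listed genes and class markers, those lost with no mitochondrial limit were Mlph, Met, Cacna1c, Slc8a1, Cdh2, Ttn and Pcdh15. Those lost with marked doublets left out were Mlph, Cadm2, Cacna1c, Slc8a1, Cdh2, Top2a, Ttn, Myl7 and Rnf43, and a was not tested in that fit.

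Of the 15 melanocyte transcription factors listed, 12 could be tested, 5 were higher and 0 lower, with a median log2 change of 0.43. Sox10, a neural crest factor that acts above Mitf, was at 81.7, 192 and 9.52 CPM in the members of pools 1, 2 and 3 and at 0.673, 0.458 and 0.588 CPM in the others. The lowest member value was thus above the highest of the others, and the log2 change was 6.78 (SE 0.45, edgeR adjusted p = 5.26e-45). Pax3, which encodes a paired box factor of the neural crest and of melanocyte precursors, was at 527, 1185 and 93.3 CPM against 0.601, 1.27 and 0.321. Its log2 change of 9.52 (SE 0.23) was 10.33 with nuclei weighted equally (edgeR adjusted p = 1.29e-182). Tfap2a, which encodes a neural crest factor of the AP-2 family, was at 72.1, 162 and 7.62 CPM against 1.06, 1.22 and 1.07 (log2 change 5.59, SE 0.43, edgeR adjusted p = 3.15e-33). For Pax3 and Tfap2a as well, each pool of members stood above each pool of others. Here and below, the share of all tested genes with such a separation is not given, so separation is a description only.

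Mitf and Tbx2 changed less in the sums. Mitf, the central factor of the pigment programme, is also made in many other cells, and stood at 397, 634 and 251 CPM in members against 155, 217 and 248 in the others. The log2 change was 0.89 (SE 0.16, edgeR adjusted p = 4.43e-06), and 1.78 with nuclei weighted equally. Within the melanocyte-like cluster the members had 1012, 1295 and 684 CPM of Mitf. Tbx2, a T-box factor known in melanocytes, rose by a log2 change of 1.68 (SE 0.32, edgeR adjusted p = 0.00027), and by 3.75 with nuclei weighted equally and 3.05 among nuclei with at most 20000 UMIs. Without pool 2 its log2 change was 0.84, and without pool 3 it was 2.31. Both calls were lost without the block (adjusted p = 0.437 for Mitf and 0.451 for Tbx2) and without pool 2 (0.949 and 0.726), whereas Sox10, Pax3 and Tfap2a passed in both fits. Mitf did not pass without pool 1 either (0.557). Tfec, Tfeb, Lef1, Sox5, Snai2, Zeb2 and Sox9 did not pass, with log2 changes from -0.85 for Tfec to 0.43 for Sox9, whose sign turned without pool 2. Among nuclei with at most 20000 UMIs, Sox5 and Zeb2 also passed as higher, and the median of the list was 0.82, beside 0.43 in the sums.

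Among nuclei with at least 1000 UMIs, each reduced to 1000, a UMI of Pax3 was found in 51.3% ± 12.2 of members and 0.0670% ± 0.0165 of the other nuclei (mean and SD of 3 pools). The shares were 39.4% ± 5.98 and 12.99% ± 2.08 for Mitf, 23.4% ± 6.71 and 1.10% ± 0.209 for Kit, and 13.9% ± 4.65 and 0.0947% ± 0.0386 for Sox10. Without this reduction the shares of members were 72.7% for Pax3, 77.0% for Mitf, 56.4% for Kit and 41.6% for Sox10. In the melanocyte-like cluster, Pax3 was seen in 61 of 63 members, Mitf in 54, Kit in 46 and Sox10 in 40. Among the 42 members elsewhere, the same genes were seen in 11, 25, 13 and 4, at a median of 13058.5 UMIs against 3889.

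The detection of melanocyte genes that the rule did not use went with the number of rule genes seen. Pax3 was detected in 0.240% of nuclei with 0 rule genes, 0.685% with 1, 17.2% with 2, 58.8% with 3, 96.8% with 4 and 96.4% with 5. For Slc45a2 the shares were 0.0707%, 0.274%, 3.45%, 17.6%, 67.7% and 67.9%. Ttn, the giant sarcomere protein of cardiomyocytes, was seen in 43.6%, 57.8%, 65.5%, 58.8%, 38.7% and 46.4%, with median depths of 4013, 6106, 4378, 7730, 4332 and 5877.5 UMIs. Of 8 further melanocyte genes (Sox10, Pax3, Mitf, Kit, Trpm1, Slc45a2, Oca2 and Gpr143), 4 or more were detected in 57 of the 63 members of the melanocyte-like cluster. The same held for 7 of the 42 members elsewhere and for 0 of 14146 nuclei with 0 rule genes.

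**Figure D2:**
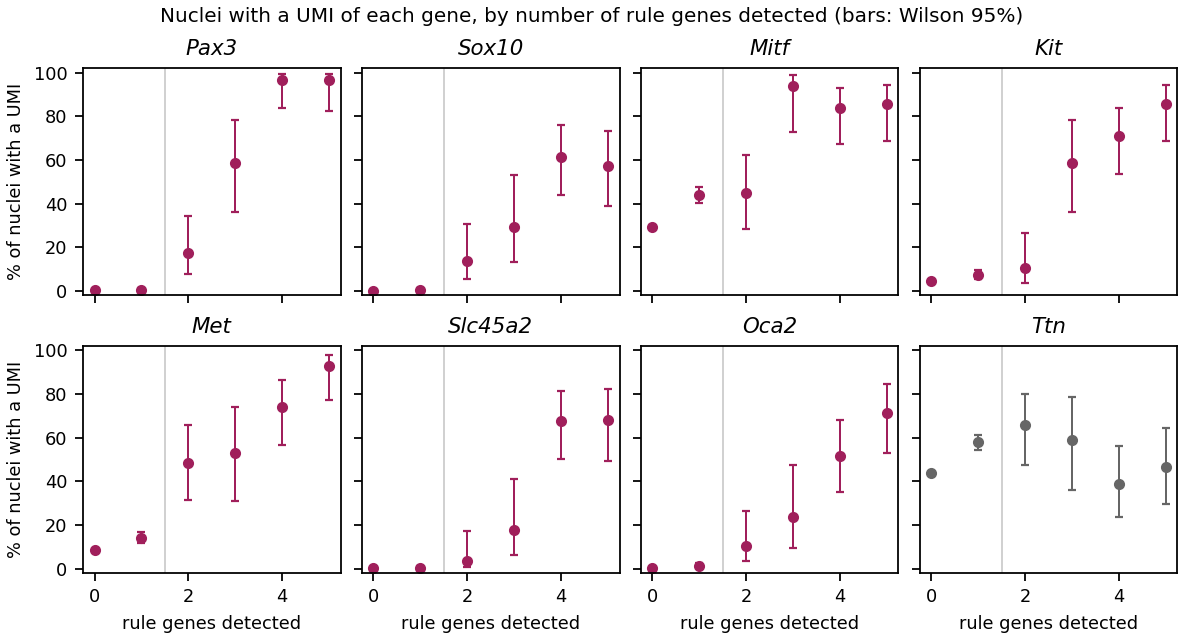
Share of nuclei (percent, with Wilson 95% intervals over nuclei) with a UMI of each gene, by the number of rule genes detected; the grey line separates members, on its right, from other nuclei. Pax3 goes from 0.240% with 0 rule genes to 96.4% with 5, while Ttn lies between 38.7% and 65.5% throughout.

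All 33 melanosome and pigment genes were tested; 12 were higher and 0 lower, beside the background of 1.24% higher, and their median log2 change was 0.74. Slc45a2, which encodes a transporter of the melanosome membrane, was at 83.3, 241 and 13.3 CPM in members against 0.144, 0.305 and 0.107 in the others (log2 change 8.96, SE 0.49, edgeR adjusted p = 1.1e-70). Oca2, the gene altered in oculocutaneous albinism type II, encodes a melanosomal channel protein and was at 155, 521 and 99.0 CPM against 0.866, 0.966 and 0.801. Its log2 change was 7.82 (SE 0.25, edgeR adjusted p = 2.82e-202). Gpr143, the ocular albinism receptor of melanosomes, rose by 7.92 (SE 0.61, edgeR adjusted p = 6.22e-36), and Trpm1, a cation channel gene of melanocytes, by 8.46 (SE 0.39, edgeR adjusted p = 1.56e-94). In these 4 genes every pool of members was above every pool of others.

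Among the called genes of the same list, Mlph, Rab27a and Myo5a encode the melanophilin, small GTPase and myosin that together carry melanosomes along actin. Mlph stood at 106, 226 and 15.2 CPM in members against 2.74, 1.37 and 1.92 (log2 change 5.26, SE 0.66, edgeR adjusted p = 0.00269). Myo5a stood at 250, 477 and 157 CPM against 106, 86.8 and 104 (1.32, SE 0.17, 3.57e-11). Rab27a stood at 59.2, 152 and 18.1 CPM against 18.4, 14.1 and 14.1 (1.75, SE 0.29, 1.38e-05), so its pool 3 value lay within the range of the others. Rab38, a GTPase that delivers cargo to melanosomes, rose by 3.85 (SE 0.35, edgeR adjusted p = 2.82e-24) and Sytl2, a synaptotagmin-like partner of RAB27A, by 2.65 (SE 0.41, 0.00178). Syngr1, Lyst and Hps3 also passed, at 1.98, 0.94 and 0.74.

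Gpnmb and Slc24a5 did not pass in the sums (edgeR adjusted p = 0.295 and 0.19). Their groups of pools did not overlap, which is a description only. Gpnmb, which encodes a glycoprotein of melanosomes and lysosomes, was at 347, 674 and 61.9 CPM in members against 1.85, 4.22 and 2.30. With nuclei weighted equally its log2 change was 7.97 (edgeR adjusted p = 5.52e-104), and that of Slc24a5, a melanosomal exchanger gene, was 4.52 (1.12e-18). Slc24a5 overlaps Myef2 in the annotation, so reads of the 2 genes may not be told apart. The other 19 genes did not pass, with log2 changes from -1.20 for Myrip, also a melanosome transport gene, to 1.16 for Slc24a4. Among them are Cd63, Hps1 and Ap3b1, which serve lysosome-related organelles in other cell types too. When nuclei were weighted equally, 15 of 29 were higher and 0 lower, Slc24a4 among them (1.93, adjusted p = 3.56e-06). Among nuclei with at most 20000 UMIs, Slc24a4, Cd63, Mreg and Ap3d1 also passed as higher, and Myrip passed as lower. Without pool 2, 6 of the 12 calls held, those of Mlph, Oca2, Trpm1, Myo5a, Slc45a2 and Gpr143, while Rab38 (adjusted p = 0.25), Rab27a (0.437), Sytl2 (0.712), Syngr1 (0.132), Lyst (0.103) and Hps3 (0.732) did not pass. Without the block 7 calls held, and without pool 1 the calls of Lyst (0.0525) and Hps3 (0.932) were lost. With marked doublets left out, Mlph did not pass (0.249).

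**Figure D3:**
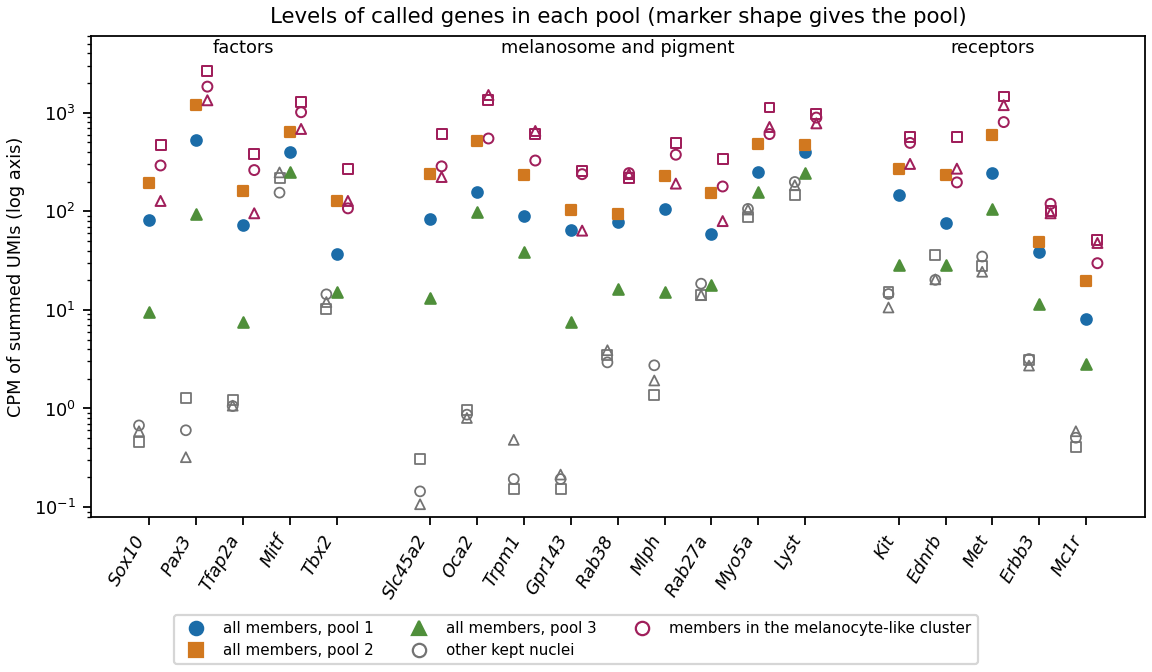
Summed levels in CPM (log axis) of called factors, pigment genes and receptors in the members of each pool (filled), the other kept nuclei (grey) and the members of the melanocyte-like cluster (open, magenta), with 1 point per pool. Filled points of pool 3 are the lowest of the 3 for every gene shown, at 9.52 CPM for Sox10, while pool 3 of the melanocyte-like cluster had 127 CPM.

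Of 18 receptors and signal intermediates tested, 7 were higher and 0 lower, with a median log2 change of 0.03, which did not differ at this precision when Ngfr, with 0 UMIs in members, was left out. The same 7 were higher with nuclei weighted equally, where Prkca passed as lower (median 0.31 over 16 tested), and among nuclei with at most 20000 UMIs, where Fgfr2 did (median 0.50 over 17). Kit, the receptor for KIT ligand, was at 147, 270 and 28.6 CPM in members against 14.5, 15.1 and 10.6 in the others (log2 change 3.00, SE 0.29, edgeR adjusted p = 4.09e-09). Met, the receptor for hepatocyte growth factor, was at 245, 600 and 105 CPM against 34.8, 28.1 and 24.4 (3.03, SE 0.41, 0.0175), and did not pass with DESeq2 size factors (0.0975) or with no mitochondrial limit (0.193). Erbb3, a neuregulin receptor of neural crest cells, was at 38.4, 49.2 and 11.4 CPM against 3.17, 3.10 and 2.72 (3.15, SE 0.42, 4.08e-11). Mc1r, the melanocortin receptor that sets the type of melanin made, had few molecules, at 8.01, 19.7 and 2.86 CPM against 0.505, 0.407 and 0.588 (3.78, SE 0.79, 0.000242), and was seen in 10 members, all in the melanocyte-like cluster. In these 4 genes the groups of pools did not overlap. With nuclei weighted equally the log2 changes were 4.41 for Kit, 4.91 for Met, 3.99 for Erbb3 and 5.42 for Mc1r.

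Ednrb, the endothelin receptor needed by melanocyte precursors, is also made by other valve cells. Its members had 75.3, 231 and 28.6 CPM against 20.2, 36.2 and 20.4, so that pool 3 of the members lay within the range of the others (log2 change 1.65, SE 0.22, edgeR adjusted p = 3.87e-11). Its log2 change was 3.15 with nuclei weighted equally and 3.01 among nuclei with at most 20000 UMIs. Adcy2 and Adcy9, adenylate cyclases of the cyclic AMP pathway, rose by 1.15 and 0.92 (edgeR adjusted p = 0.0019 and 1.99e-05), and by 2.38 and 1.77 with nuclei weighted equally. Without pool 2 only Met (adjusted p = 7.39e-06) and Erbb3 (0.0119) of the 7 passed, with Kit at 0.33, Ednrb at 0.322, Mc1r at 0.569, Adcy2 at 0.697 and Adcy9 at 0.254. Without pool 1, Mc1r (0.21) and Adcy9 (0.318) did not pass. Without the block Met (0.0302), Mc1r (0.0332) and Erbb3 (0.00486) passed, and Kit (0.0822), Ednrb, Adcy2 and Adcy9 did not.

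**Figure D4:**
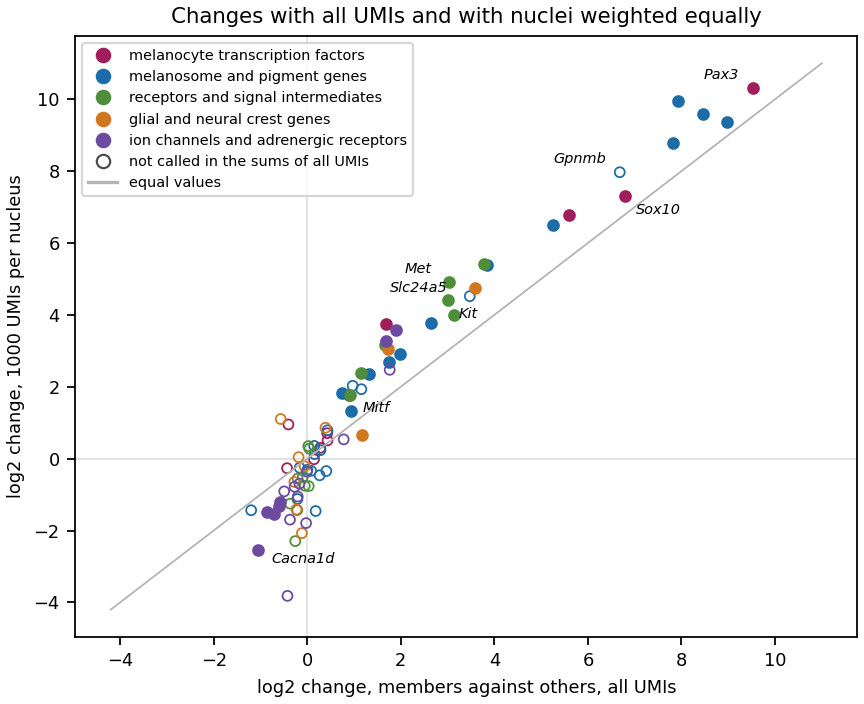
Log2 change of listed genes between members and other kept nuclei in the sums of all UMIs (x axis) against the change with 1000 UMIs per nucleus (y axis); filled points passed in the sums and the grey line marks equal values. All 5 called factors, all 12 called pigment genes and all 7 called receptors lie above the line, that is, their change was larger with nuclei weighted equally.

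Transcripts of the ligands of these receptors were measured in the members of the melanocyte-like cluster and in 10 other named classes, leaving out the adipocyte-like and the unnamed clusters. Kitl, the ligand of KIT, was at 195.6 ± 6.33 CPM in valve interstitial-like nuclei and 193.2 ± 16.0 in endothelial-like nuclei (mean and SD of 3 pools), which did not differ beyond their spread. Both were above the 36.9 ± 14.8 CPM of the members of the melanocyte-like cluster, which rested on 13 UMIs, and pericyte-like (109.7 ± 26.1) and mesothelial-like nuclei (98.7 ± 7.17) came between. Edn1, an endothelin, was at 245 ± 13.1 CPM in endothelial-like nuclei and at most 50.5 ± 19.8 CPM, in lymphatic endothelial-like nuclei, in the other classes measured. Edn3, the endothelin known to act on melanocyte precursors, had 0 UMIs in the members of the cluster, 0 in endothelial-like nuclei and at most 5 in each class measured. Hgf, the ligand of MET, was highest, among the classes measured, in lymphatic endothelial-like nuclei at 121 ± 10.5 CPM. These levels were compared by their ranges and not by a test.

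**Figure D5:**
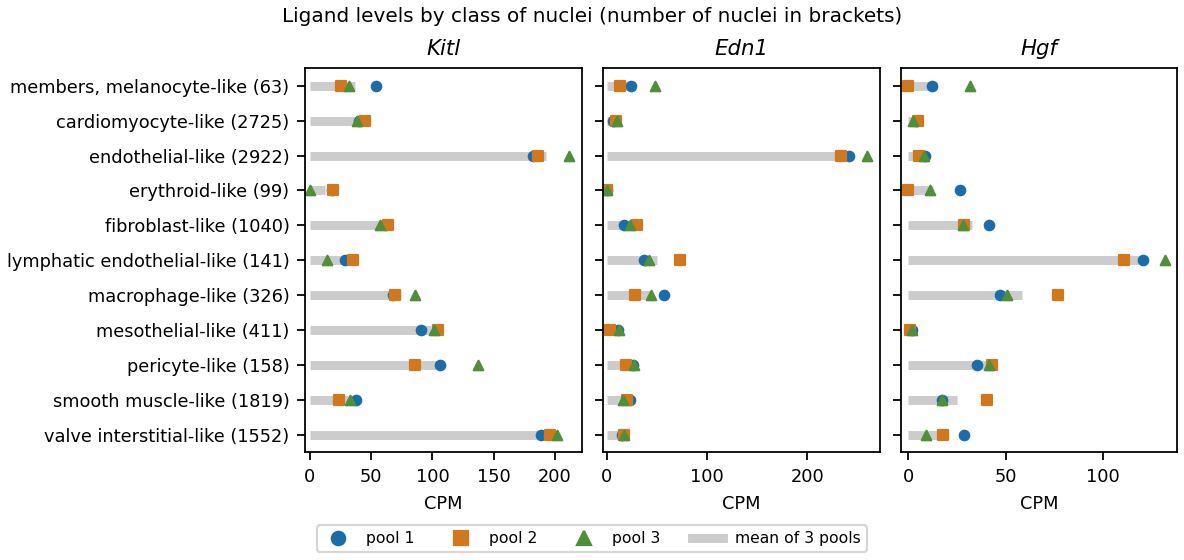
Levels of 3 ligands in CPM by class of nuclei, with 1 point per pool, a grey bar for the mean of 3 pools and the number of nuclei in brackets. Kitl reaches 195.6 CPM in valve interstitial-like nuclei, Edn1 245 CPM in endothelial-like nuclei and Hgf 121 CPM in lymphatic endothelial-like nuclei.

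Among 7 ligand genes tested, only a, the symbol of the agouti signalling protein gene, passed (log2 change 3.597, SE 0.70, edgeR adjusted p = 4.19e-05). It rested on 9.61, 49.2 and 0 CPM in the members of pools 1, 2 and 3, and the 0 of pool 3 was below the 0.801 CPM of the others there. Without pool 2 it did not pass (adjusted p = 0.931), and without the block it did not either (0.461). The median log2 change of the ligand list was -0.13.

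Genes shared with Schwann cells were partly present. Of 14 glial and neural crest genes tested, 3 were higher, among them Cdh19 and Cadm2, and 0 were lower, with a median log2 change of -0.02. Cdh19, a cadherin of Schwann cell precursors, was at 149, 162 and 36.2 CPM in members against 6.61, 8.90 and 8.44 (log2 change 3.58, SE 0.26, edgeR adjusted p = 9.14e-21). Gfra3 was seen in 1 of the 63 members of the melanocyte-like cluster. Sox2 had 0 UMIs in all kept nuclei. Cadm2 was at 32.0, 4.92 and 37.1 CPM, below the others in pool 2, and its log2 change of 1.17 became -0.43 among nuclei with at most 20000 UMIs. Without pool 2 the call of Cdh19 was lost (adjusted p = 0.724), and that of Cadm2 was lost without pool 1 (0.643) and without pool 3 (0.787).

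The melanocyte-like cluster also held 18 nuclei that were not members, 13 with 0 and 5 with 1 rule gene. Cdh19 was seen in 15 of these 18 at 1379 CPM, against 423 CPM over the 63 members of the cluster, and Scn7a, a sodium channel gene of Schwann cells, in 11 against 2 of 63. Sox10 was seen in 12 of the 18, Ednrb in 10 and Gfra3 in 6. Dct was seen in 4, Pax3 in 6, Kit in 2, and Tyr and Pmel in 0 of them. Since the cluster and the rule fix which nuclei are compared, these values describe 2 sets in 1 cluster and were not tested.

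A direct comparison was made with 81 glial-marker nuclei, which were not members and held at least 2 of 8 glial markers. They were no pure glia: 12 lay in the melanocyte-like cluster, 14 in the unnamed cluster of deep nuclei, 13 in endothelial-like clusters, 11 in the fibroblast-like cluster, and 20 had over 20000 UMIs. Of 8600 genes, 28 were higher in members (0.326%) and 3 lower (0.0349%), 0.36% in all. When nuclei were weighted equally, 37 were higher and 27 lower of the 363 genes that could be tested, so the balance of directions moved. The lower genes there included all 3 fibroblast markers that could be tested, Dcn, Col1a1 and Abca8a, and their part in the lower calls was not tested. Of the listed genes, Pax3, Oca2, Trpm1, Slc24a5, Syngr1, Sytl2 and Kit were higher. Pax3 was at 0, 2.56 and 3.08 CPM in the glial-marker nuclei (log2 change 7.82, SE 0.43, edgeR adjusted p = 1.74e-06), and Oca2 at 0, 2.56 and 0 CPM (8.01, SE 0.45, 1.13e-06). Kit, at 35.9, 15.4 and 10.8 CPM there, differed by 2.52 (SE 0.39, edgeR adjusted p = 0.0146). With pool left out of the fit 0 genes passed (445 at an unadjusted p under 0.05), and DESeq2 called 29 with the block.

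Further genes higher in members than in glial-marker nuclei were Syt4, Cpne4, Synpr, Mcoln3, Eya1, Nrcam, Shc4, Myo16, Bnc2, Myo7a, Gria4 and Hs3st1, with the transcripts 4933430M04Rik, G630064G18Rik and Gm32017. Nrcam, a neuronal cell adhesion gene, was at 263, 516 and 67.6 CPM in members against 3.99, 30.8 and 4.61 (log2 change 4.45, SE 0.32, edgeR adjusted p = 7.7e-06). Synpr, which encodes the vesicle protein synaptoporin, was at 165, 423 and 47.6 CPM against 3.99, 0 and 0. 4933430M04Rik had 0 UMIs in the glial-marker nuclei of all 3 pools and 120, 63.9 and 37.1 CPM in members. Adam23 and Eda were lower in members, by log2 changes of -2.24 (SE 0.39, edgeR adjusted p = 0.0197) and -1.10 (SE 0.20, 0.0324), and neither passed without pool 1 (0.191 and 0.0538) or without pool 2 (0.0959 and 0.135). Kcnh8, named after its values were seen because it is the third lower gene, differed by -4.17 (edgeR adjusted p = 0.00759). Hs3st1 did not pass without pool 1 (0.132) or pool 3 (0.103), and Myo16 (0.0717), Shc4 (0.114), Myo7a (0.230), Syngr1 (0.465) and Sytl2 (0.154) did not without pool 2. In DESeq2, G630064G18Rik (0.0936), Myo7a (0.0565), Hs3st1 (0.179), Adam23 (0.149) and Syngr1 (0.180) did not pass, and Adam23 (0.0561) and Eda (0.141) did not with at least 3 rule genes. With marked doublets left out, 11 genes passed as higher and 0 as lower, and Kit (0.0857), Sytl2 (0.0857), Bnc2 (0.748), Adam23 (0.102) and Eda (0.186) did not pass.

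The 20 genes with the largest rises against all other nuclei included 7 of the listed genes, Pax3, Slc45a2, Trpm1, Gpr143, Oca2, Sox10 and Tfap2a. Mcoln3, which encodes an endolysosomal calcium channel, was at 107, 143 and 25.7 CPM in members against 0.409, 0.559 and 0.427 (log2 change 7.43, SE 0.41, edgeR adjusted p = 2.94e-69). Syt4, a synaptotagmin gene, was at 107, 231 and 32.4 CPM against 0.890, 0.610 and 0.534 (7.13, SE 0.34, 5.2e-93). The gap junction gene Gjc3 rose by 7.05 (SE 0.70), Glt1d1 by 7.47, Ankfn1 by 6.75 and Cpne4 by 6.301. The others were 4933430M04Rik, Gm10863, Gm12068, G630064G18Rik, Gm32017, LOC118568502 and Gm32740, to which no function is given here. Gm10863 neighbours Sox10 and Gm12068 neighbours 4933430M04Rik in the RefSeq annotation, so each pair may share reads. Of the 20 calls, 20 held without the block and in DESeq2, and 19 held when any 1 pool was left out, the other gene, Gm12068, not being tested there. With marked doublets left out, Cpne4 (adjusted p = 0.439) and G630064G18Rik (0.272) did not pass.

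The haemoglobin genes Hba-a1, Hba-a2, Hbb-bs and Hbb-bt, which mark red blood cells, were lower in members by log2 changes of -3.54, -3.56, -3.66 and -3.93. Hba-a1 was at 44.8, 88.5 and 89.5 CPM in members against 521, 1035 and 946 in the others (SE 0.18, edgeR adjusted p = 3.25e-78). The other kept nuclei include 99 erythroid-like nuclei, and against depth-matched nuclei Hbb-bs passed (adjusted p = 0.0234) and Hba-a1 (0.384), Hba-a2 (0.533) and Hbb-bt (0.825) did not. Fam155a was at 1.60, 0 and 4.76 CPM against 35.3, 35.7 and 22.7 (log2 change -3.22, SE 0.45, edgeR adjusted p = 2.45e-10), and did not pass with nuclei weighted equally (0.307) or against depth-matched nuclei (0.195). Gabrg3 did not pass in those fits either (0.55 and 0.248). Gm52520 and Gm40331 had 0 UMIs in members, at least 3.34-fold and 4.60-fold lower than in the others by a limit of 3 counts over all members. Lin7a, Slurp1 and Gabrg3 completed the falls by the rule used to name genes, at -3.69, -3.01 and -2.70, and the calls of Gm52520 (0.102), Gm40331 (0.219), Lin7a (0.577), Slurp1 (0.469) and Gabrg3 (0.484) were lost without pool 1, and also without the block and in DESeq2. Without pool 2, Gm52520 (0.132), Gm40331 (0.163), Lin7a (0.287) and Slurp1 (0.304) did not pass, and without pool 3 the same 4 did not pass (0.525, 0.0948, 0.371 and 0.0605). Gm52520 and Lin7a did not pass with no mitochondrial limit, and Lin7a did not with marked doublets left out.

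Melanocytes of the heart have been studied for ion channels and receptors of excitable cells. Of 21 such genes tested, Kcnj13 and Ptgds were higher, Kcnn2, Cacna1c, Cacna1d, Slc8a1 and Chrm2 were lower, and 14 did not pass. Their median log2 change was -0.20. Ptgds, which encodes a prostaglandin D synthase, was at 44.8, 88.5 and 10.5 CPM in members against 9.19, 12.4 and 7.11 (log2 change 1.90, SE 0.31, edgeR adjusted p = 2.53e-07). Cacna1d, an L-type calcium channel gene, was at 197, 123 and 404 CPM against 322, 502 and 636 (-1.05, SE 0.16, 1.83e-08). None of the 7 calls held without the block. Without pool 2 Cacna1d alone passed (0.0154), and without pool 1 Cacna1d (0.000448) and Kcnn2 (0.011) did.

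With nuclei weighted equally, 2 of 18 tested channel and receptor genes were higher and 6 lower, with a median of -1.13. Of the 8 cardiomyocyte markers, 2 were lower in members in the sums, Ttn by -0.59 (SE 0.16, edgeR adjusted p = 0.0109) and Myl7 by -0.65 (SE 0.19, 0.0387), 6 did not pass, and the median was -0.32. Neither call held against depth-matched nuclei (0.903 and 0.884), without the block, in DESeq2, without pool 1 (Ttn 0.223), without pool 2 (Ttn 0.840) or with marked doublets left out, while with nuclei weighted equally 3 of the 8 were lower, with a median of -0.87, Myl7 not among them (0.524). The markers summed to 5483 to 10723 CPM in all members, which overlapped the 8212 to 11735 CPM of the other kept nuclei, and to 2262 to 7640 CPM in members of the melanocyte-like cluster, and 6965 to 10919 in members elsewhere, and none was at 0 in the cluster. Their part in the lower channel genes was not tested. Of the 14 marker lists other than the melanocyte one, 10 had sums in the cluster whose range over pools lay below that in the other kept nuclei, 2 (macrophage, T or mast cell) overlapped it, and 2 (glial and adipocyte) were above. The adipocyte markers summed to 149 to 241 CPM in the cluster, with 3 of 5 at 0, against 44.4 to 78.8 CPM, and Pparg, a nuclear receptor gene of that list, was higher in members (log2 change 0.95, SE 0.22, edgeR adjusted p = 0.0014). Pparg did not pass against depth-matched nuclei (0.851), without the block, in DESeq2 or without pool 2, with adjusted p from 2.65e-05 to 0.892 over the alternatives run. Neuronal markers summed to 0 to 12.7 CPM with 7 of 8 at 0, mesothelial markers to 0 to 25.4 CPM with 4 of 6 at 0, and valve interstitial markers to 53.6 to 398 CPM with Scx and Rnf43 at 0. The 8 valve interstitial markers gave 7 tested genes, of which Adamts19, Rmst, Pcdh15 and Rnf43 were lower in members, by -0.95, -1.83, -0.64 and -1.63. Without the block 0 of these 4 calls held, and Pcdh15 (adjusted p = 0.152 and 0.363) and Rnf43 (0.297 and 0.191) did not pass without pool 1 or pool 2. With nuclei weighted equally 0 of the 4 calls held, Adamts19 and Rmst having adjusted p = 0.0596 and 0.0594, and 0 held against depth-matched nuclei.

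Adhesion genes gave 1 higher and 3 lower of 24 tested, with a median log2 change of -0.13. Itga4, an integrin gene of migrating neural crest cells, was at 413, 266 and 226 CPM in members against 202, 101.9 and 155 (log2 change 0.89, SE 0.16, edgeR adjusted p = 3.33e-06). Cdh2, Cdh13 and Robo1 were lower by -0.55, -0.59 and -0.67. Cdh1, the cadherin of epidermal melanocytes, could not be tested, and was seen in 7 of the 63 members of the cluster at 29.1 CPM, against 0.427 to 0.842 CPM in the pools of other nuclei. None of the 4 calls held without the block (adjusted p = 0.397 for Itga4), without pool 1 (0.163 for Itga4) or against depth-matched nuclei (0.299 for Itga4), and Itga4 alone held without pool 2 (0.0364). With nuclei weighted equally, 0 of 23 were higher and 7 lower, with a median of -0.57, and Itga4 did not pass (0.156).

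Some members carried transcripts of dividing cells. After reduction to 1000 UMIs, 9 of 51 members of pool 1, 3 of 26 of pool 2 and 0 of 23 of pool 3 had at least 2 UMIs of 12 cell cycle genes, a mean of 9.73% ± 8.96 (SD, n = 3). The other nuclei had 5.77% ± 0.941, within the spread of the members. A count of 0 of 23 allows a share of up to 13.04%. In the melanocyte-like cluster, 10 of 59 members passed, 7, 3 and 0 by pool. Without the reduction the share was 35.7% ± 2.41 of members and 13.5% ± 2.91 of the other nuclei, at median depths of 4795 and 4084 UMIs. In the melanocyte-like cluster it was 20.5% ± 17.9, with 9 of 32, 6 of 18 and 0 of 13 members by pool. Elsewhere 22 of 42 members passed without the reduction, at a median of 13058.5 UMIs. Of the 12 genes, Top2a, a topoisomerase of dividing cells, was called higher in the sums (log2 change 0.61, SE 0.18, edgeR adjusted p = 0.033), and its call was lost without pool 1 (0.904), pool 2 (0.571) or pool 3 (0.12), and without the block (0.557). Among nuclei with at most 20000 UMIs, 6 of the 12 passed as higher, Mki67, Top2a, Cenpe, Cenpf, Kif15 and Nusap1, whereas with nuclei weighted equally 0 of 11 passed in either direction.

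The reporter gene of the strain, EGFP, had 0 UMIs in the 63 members of the melanocyte-like cluster, which allows a share of nuclei with a UMI of up to 4.76%. The other kept nuclei had a UMI in 3.78%, so a lower share was not detectable at this depth. Members elsewhere had 17 EGFP UMIs in 11 of 42 nuclei, at a median of 13058.5 UMIs per nucleus against 4084 in the other kept nuclei. These shares were not compared at equal depth. Scx had 0 UMIs in the members of the cluster.

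Female and male nuclei were found in each pool. By Xist and 4 Y-linked genes, 6 female and 14 male nuclei of the melanocyte-like cluster were found among the members of pool 1, 4 and 6 in pool 2, and 3 and 3 in pool 3. Another 8 members of the cluster carried transcripts of both kinds. Among members elsewhere 19 of 42 carried both kinds, at a higher median depth.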

How the data were processed

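The authors deposited 3 matrices of raw UMI counts, made with Cell Ranger 7.1.0 according to their headers. The submitters' processing notes name Cell Ranger 7.0.1 and 7.1.0 and the build GRCm39. The tables name 36167 features and hold 21140 barcodes, with totals of 49918251, 25341316 and 21254247 UMIs. Nuclei with at least 500 UMIs and at most 5% of UMIs from 13 mitochondrial genes were kept, and 6159 were left out.

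Counts were summed per pool and side and tested with edgeR 4.0.16 (R 4.3.3, quasi-likelihood test, robust, TMM, filterByExpr), with the pool as a block because both sides come from 1 library, and Benjamini-Hochberg adjustment over all genes. Rule genes were left out. The SE is the log2 change divided by the square root of the F statistic. DESeq2 1.42.0 was an alternative. The script was tested on simulated data. Clusters came from scanpy 1.11.5 and leidenalg 0.10.2 (2000 variable genes, 30 components, 15 neighbours, resolution 1), without rule and mitochondrial genes. A cluster was named for at least 3 markers of a list, each in at least 10% of its nuclei and at least 2-fold higher, with a pseudocount of 5 CPM. Doublets were marked at 0.8% per 1000 nuclei and kept in the main analysis. A nucleus was called female from 2 or more Xist UMIs with no Y-linked UMI and male from the reverse, a Y-linked UMI with no Xist. Wilson intervals are at 95%, and limits of a count of 0 use 3 counts.

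Any gene of the fixed lists may be named, with the 20 largest rises and 10 largest falls that passed, had 1 direction in all 3 pools and at least 10 UMIs in the members (rises) or in the compared nuclei of every pool (falls). The members and lists were chosen with earlier results of these data known. Nuclei with under 1000 UMIs were left out wherever nuclei were reduced to 1000 UMIs. Depth limits of 20000 UMIs and equal weights of 1000 UMIs per nucleus were added after the data were seen. No column of another series was used, and chromatin data were not analysed here. Some listed genes are not reported here.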

Additional observations from a re-analysis of the deposited data

Results flagged for a closer look

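Among the 6159 nuclei left out for more than 5% mitochondrial UMIs, 19 met the rule of at least 2 rule genes, 11 of 3023 in pool 1, 7 of 2486 in pool 2 and 1 of 650 in pool 3. The share was 0.308%, beside 0.701% among all kept nuclei. Of these 19, 3 had 4 or more rule genes, and their median depth was 2877 UMIs. They lie outside the comparisons of the report.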

How the results depend on the processing

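Against the other kept nuclei, 366 genes passed in the main analysis, and 136 passed in DESeq2, 554 with at least 3 rule genes, 928 among nuclei with at most 20000 UMIs, 657 with at least 3 rule genes and 1000 UMIs per nucleus, and 38 against depth-matched nuclei. Without 1 pool, 67 (pool 2) to 456 (pool 3) passed, and 118 without pool 1. Fits without the pool as a block, which ignore the pairing of both sides of a library, called 75 genes, and 0 of 31 against glial-marker nuclei. In that comparison 215 passed with no filter on low counts, 11 with doublets left out, 64 (37 higher, 27 lower) with 1000 UMIs per nucleus, 84 (47 higher, 37 lower) with at least 3 rule genes in addition, and 30 to 98 without 1 pool (98 without pool 3). A fit of that comparison with at most 20000 UMIs was not run, since pool 3 had under 10 such glial-marker nuclei. The causes were not tested, although fewer genes were tested with 1000 UMIs per nucleus and against depth-matched nuclei.

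The share of members was 0.531% with at least 3 rule genes, 0.569% with no mitochondrial limit, 0.579% with at most 20000 UMIs, 0.460% with reduction before the rule and 0.661 to 0.746% without 1 pool. The shares of members with a UMI without reduction were 41.6% (Sox10), 72.7% (Pax3), 77.0% (Mitf) and 56.4% (Kit), and that of cycling nuclei was 35.7%. Without 1 pool the reduced shares were 12.04 to 16.5% (Sox10), 44.3 to 55.2% (Pax3), 36.0 to 41.7% (Mitf), 19.7 to 26.3% (Kit) and 5.77 to 14.6% (cycling). Of the named genes under all settings, the direction turned for Cadm2 with at most 20000 UMIs (log2 change -0.43) and for Sox9 without pool 2 (-0.20, and 0.79 without pool 1). The 19 members over 20000 UMIs held 43.9 to 89.7% of the members' UMIs by pool, so the sums weight these nuclei heavily.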
